A study of Mus musculus with 6 samples.

Results

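The vascular endothelial growth factors (VEGFs), their receptors and apelin were followed in cultured mouse aortic smooth muscle cells after knockdown of Ezh2. The set comprised 10 genes of the 27502 in the deposited tables, chosen by symbol: the ligand genes Vegfa, Vegfb, Vegfc, Vegfd and Pgf, the receptor genes Flt1 and Kdr, the neuropilin genes Nrp1 and Nrp2, and the apelin gene Apln. Vascular smooth muscle cells (VSMCs) are the contractile cells of the vessel wall. Here they were grown from mouse aorta and sampled at 48 hours as 3 control samples and 3 samples given small interfering RNA against Ezh2 (siEzh2). Ezh2 encodes the methyltransferase of Polycomb repressive complex 2, which deposits the repressive histone mark H3K27me3. The treatment of the control cells, the strain, sex and age of the mice, and whether the samples of a group were separate cultures were not found in the sources used. Every p-value therefore reflects the spread among these 6 samples alone, and that spread may be technical.

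VEGF ligands are secreted proteins that bind receptor tyrosine kinases, classically on endothelial cells. VEGF-A binds VEGF receptor 1 (the product of Flt1) and VEGF receptor 2 (Kdr), while VEGF-B and placental growth factor (Pgf) bind receptor 1. VEGF-C and VEGF-D bind receptor 3 (Flt4), and VEGF-C, once cleaved, also binds receptor 2. Neuropilins are co-receptors shared between VEGFs and class 3 semaphorins, and apelin is a peptide that acts through its own G protein-coupled receptor (Aplnr). In the vessel wall, smooth muscle cells are known as a source of VEGF ligands for the neighbouring endothelium.

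Values were read fragments scaled to the merged exon length of each gene and to library size (FPKM), so that levels of different genes can be compared. That length counts the exons of all isoforms, so levels of genes with many isoforms can be understated. The 6 samples held 16080005 to 18753124 reads, recovered from the steps of the FPKM values. Ezh2 had 3.41, 3.59 and 3.88 FPKM in controls and 1.20, 1.09 and 1.05 FPKM after siEzh2, 3.26 times lower in the mean. Acta2, smooth muscle actin, had 683 to 711 FPKM in control samples, while Tagln, another smooth muscle marker, had 0.193 to 0.352 FPKM. The other defining markers Cnn1 and Myh11 had control means of 1.14 and 1.83 FPKM. Tagln shares 67.9% of its exon bases with antisense genes. In bulk RNA, fewer cells of a type and less RNA per cell cannot be told apart.

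All 10 genes passed the filter on low values (a group mean of 1 FPKM or more). By limma's test on log2(FPKM + 1), with Benjamini-Hochberg adjustment over all 11869 tested genes and a threshold of 0.05, 3 of the 10 genes were called higher in siEzh2 samples (Vegfa, Kdr and Nrp1). Over all tested genes 24.1% were called higher. Called lower were 4 genes (Vegfd, Flt1, Nrp2 and Apln), against 22.7% of all tested genes, and 3 genes were not called (Vegfb, Vegfc and Pgf). Together 7 of 10 genes were called, where 46.9% of all tested genes were. The samples of the 2 groups did not overlap for 8 of the 10 genes, against 58.1% of all tested genes. The median log2 difference, siEzh2 minus control, was -0.08 for the 10 genes and 0.01 for all tested genes.

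Vegfd and its closest relative Vegfc are shown first by their start regions, because they are paralogous ligands with a shared receptor and their transcripts differed in response. Apln is shown with them because its transcript had the largest log2 difference of the 10 genes. The RefSeq promoter table (build GRCm38.p6) held all 10 genes in 12 windows, each running from 250 bases before to 50 bases after a start site. Each sequence below reads 5′ to 3′ on the strand of its gene, and capitals mark every CG pair. The windows are chrX:164373272-164373571 on the plus strand for Vegfd, chr8:54077282-54077581 on the plus strand for Vegfc and chrX:48034804-48035103 on the minus strand for Apln.
Vegfd: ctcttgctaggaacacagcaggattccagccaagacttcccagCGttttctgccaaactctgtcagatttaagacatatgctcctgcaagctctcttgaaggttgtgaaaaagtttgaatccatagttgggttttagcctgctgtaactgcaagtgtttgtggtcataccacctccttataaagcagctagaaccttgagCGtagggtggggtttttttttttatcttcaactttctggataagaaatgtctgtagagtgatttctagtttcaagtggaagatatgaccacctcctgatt
Vegfc: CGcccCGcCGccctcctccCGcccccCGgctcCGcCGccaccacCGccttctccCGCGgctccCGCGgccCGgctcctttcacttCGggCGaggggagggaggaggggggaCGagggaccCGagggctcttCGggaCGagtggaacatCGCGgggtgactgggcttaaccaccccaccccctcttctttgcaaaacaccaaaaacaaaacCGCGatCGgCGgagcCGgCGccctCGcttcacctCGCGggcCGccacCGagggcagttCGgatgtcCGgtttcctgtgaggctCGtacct
Apln: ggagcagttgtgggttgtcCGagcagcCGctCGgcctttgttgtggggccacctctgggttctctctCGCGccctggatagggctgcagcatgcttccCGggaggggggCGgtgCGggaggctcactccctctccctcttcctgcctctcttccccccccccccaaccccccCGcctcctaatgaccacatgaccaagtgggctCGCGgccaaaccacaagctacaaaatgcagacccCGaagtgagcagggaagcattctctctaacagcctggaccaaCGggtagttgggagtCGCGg

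The Vegfd window held 2 CG pairs and was 42.0% G or C. Of all 32851 windows in the table, 14.1% held fewer CG pairs. The Vegfc window held 35 CG pairs at 70.3% G or C, and 93.0% of all windows held fewer. Apln stood between them with 15 pairs at 64.0% G or C, and the median of all windows was 7 pairs. Vegfd had the fewest CG pairs of the 12 windows, which otherwise ranged from 7 (1 of 2 Pgf windows) to 37 (Nrp2). Polycomb complexes are known to gather at CG-rich start regions in embryonic cells. Chromatin was not measured here, so the base composition is given as a description of these windows only.

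Short motifs were also searched on both strands of the same windows. The TATA-box core TATAAA stood in 2 of the 12 windows, those of Vegfd and Flt1, and in 13.6% of all windows. The Sp1-type GC box GGGCGG stood in 10 of the 12 windows and in 35.7% of all windows, and the windows without it were that of Vegfd and 1 of the 2 Pgf windows. The core ACGTG of the hypoxia response element stood in 1 of the 12 windows, a Vegfa window on chromosome 17 from 46025114 to 46025413, and in 19.6% of all windows. That window lies inside the gene, and the Vegfa window at the 5′ end of the gene (46032328 to 46032627) did not hold ACGTG. Only this form of the core was searched, and no bases outside the windows were, so the element may lie elsewhere. A match describes the letters of these windows and is not evidence of binding.

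Vegfd, which encodes VEGF-D, a growth factor of lymphatic vessels, was the most abundant of the 10 transcripts in every sample and was lower by more than 2 times in siEzh2 samples. The gene (ENSMUSG00000031380) lies on chromosome X from 164373378 to 164402650 on the plus strand (mm10, GENCODE M21). It had 231, 229.6 and 238 FPKM in controls, and 107, 103 and 100.3 FPKM after siEzh2. All 3 siEzh2 samples lay far below all 3 controls, and the spread within each group was small beside the distance between them. The means were 233 ± 4.66 and 103.5 ± 3.35 FPKM (SD, n = 3 each), 2.25 times lower. On the log2(FPKM + 1) scale Vegfd fell by 1.16 (SE 0.039, limma adjusted p = 3.57e-05), which ranked 16 among all falls by size. It ranked 138 of the 11869 tested genes by control level, and its values rest on 31216 reads in control and 12715 reads in siEzh2 samples.

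Vegfc, which encodes VEGF-C, the other ligand of VEGF receptor 3, did not pass the test. Located on chromosome 8 from 54077606 to 54187096 on the plus strand (ENSMUSG00000031520), it had 13.7, 13.5 and 13.9 FPKM in control and 13.6, 12.9 and 14.2 FPKM in siEzh2 samples. The siEzh2 samples lay on both sides of the controls. The log2 difference was -0.02 with a 95% interval from -0.12 to 0.09 (limma adjusted p = 0.789), so a change of the size seen in Vegfd lies outside the interval. Vegfd stood 17.0 ± 0.162 times above Vegfc in control samples and 7.64 ± 0.495 times above it in siEzh2 samples (SD, n = 3 each).

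Vegfa, which encodes the main angiogenic ligand of the family, was higher by a small margin. The gene (ENSMUSG00000023951, chromosome 17 from 46016993 to 46032369, minus strand) had 10.7, 10.5 and 11.0 FPKM in control and 12.4, 12.6 and 12.7 FPKM in siEzh2 samples. The groups did not overlap. The mean rose 1.17 times, from 10.7 ± 0.253 to 12.6 ± 0.126 FPKM (SD, n = 3 each), with a log2 difference of 0.21 (SE 0.0337, limma adjusted p = 0.00339). Vegfa is spliced into several isoforms, which a value per gene does not separate.

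Vegfb, which encodes VEGF-B, a ligand of receptor 1, was the second most abundant of the ligand transcripts. The gene lies on chromosome 19 from 6982473 to 6987651 on the minus strand (ENSMUSG00000024962). Its values were 33.4, 36.2 and 33.6 FPKM in control and 32.8, 29.4 and 30.8 FPKM in siEzh2 samples, so the groups did not overlap but came within 1 FPKM of each other. The means were 34.4 ± 1.58 and 31.0 ± 1.69 FPKM (SD, n = 3 each), and the log2 difference of -0.14 did not pass the threshold (limma adjusted p = 0.0716). It passed in 4 of 14 alternative settings, with adjusted p from 0.0193 to 0.189 over all of them.

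Pgf, which encodes placental growth factor, was near the filter limit and did not pass the test. The gene (ENSMUSG00000004791, chromosome 12 from 85166635 to 85177790, minus strand) had 1.38, 1.12 and 1.43 FPKM in control and 1.05, 1.49 and 1.5 FPKM in siEzh2 samples, and the lowest sample of all was a siEzh2 sample. The log2 difference of 0.02 had a 95% interval from -0.21 to 0.25 (limma adjusted p = 0.875). These values rest on 211 reads in control and 201 reads in siEzh2 samples.

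**Figure D1:**
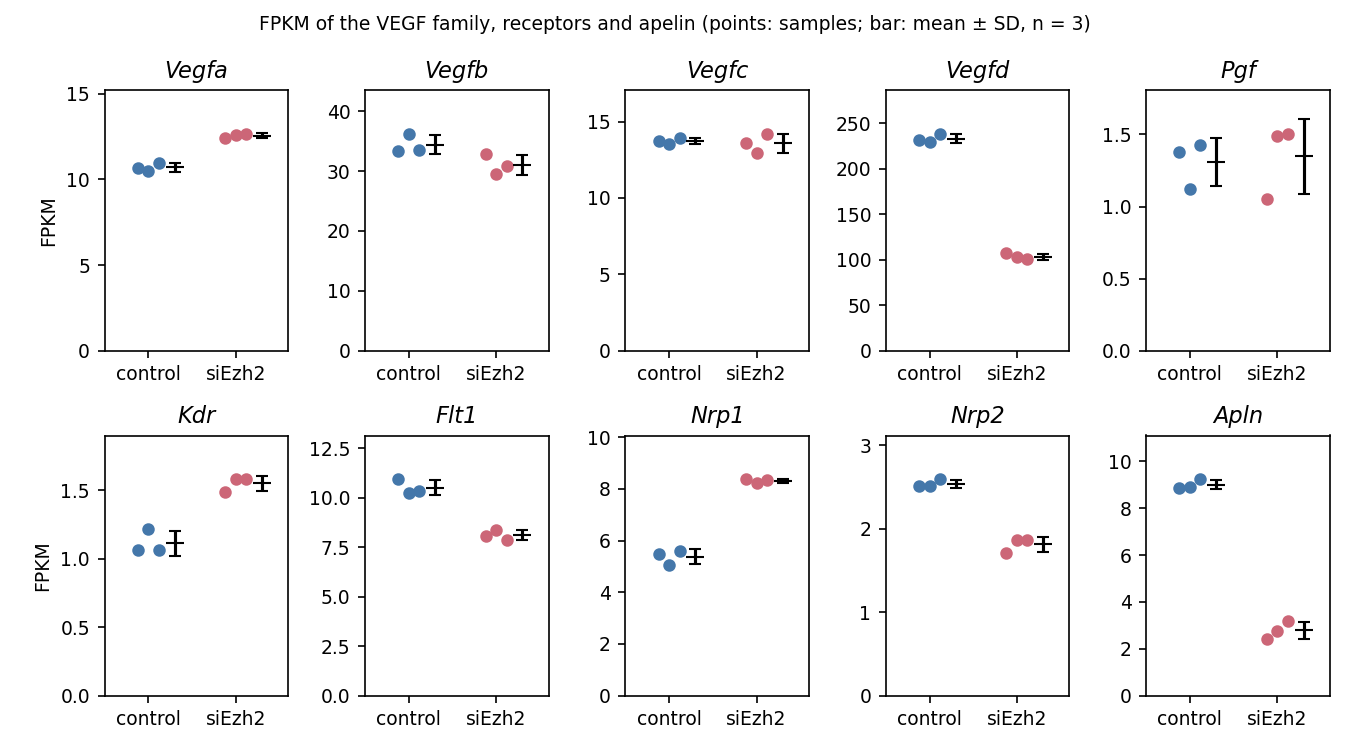
FPKM of each of the 10 genes (vertical axes in FPKM, each starting at 0 on its own scale) in 3 control and 3 siEzh2 samples, with points for samples and bars for mean ± SD. Vegfd and Apln show the widest gaps between groups, while the points of Vegfc and Pgf overlap.

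Because FPKM is per length, the ligand transcripts can be added within a sample. The 5 ligand genes summed to 290.5, 290.9 and 298 FPKM in controls and to 167, 159.6 and 159.5 FPKM after siEzh2, a mean 1.81 times lower. Without Vegfd the sums were 60.1 ± 1.09 and 58.5 ± 1.79 FPKM (SD, n = 3 each), and the groups overlapped (exact two-sided permutation p = 0.3). Vegfd therefore made up nearly all of the difference in the sum. With 3 samples against 3, the smallest p that the exact permutation test can give is 0.1, and the full sum reached it.

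The make-up of the ligand transcripts shifted accordingly. Vegfd supplied 79.6, 78.9 and 79.9% of the summed FPKM in control and 64.1, 64.6 and 62.9% in siEzh2 samples. It remained the leading ligand transcript in every sample. The mean share of Vegfb went from 11.7% to 19.1%, that of Vegfc from 4.68% to 8.38%, that of Vegfa from 3.65% to 7.76% and that of Pgf from 0.446% to 0.835%. The groups did not overlap for any of the 5 shares (exact two-sided permutation p = 0.1 each, the smallest possible). Shares add to a whole, so the larger shares of Vegfb, Vegfc and Pgf go with the lower Vegfd and are not rises of those transcripts. The order of levels was the same in both groups: Vegfd, Vegfb, Vegfc, Vegfa, Pgf. Vegfa came closer to Vegfc, with 12.4 to 12.7 against 12.9 to 14.2 FPKM in siEzh2 samples.

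**Figure D2:**
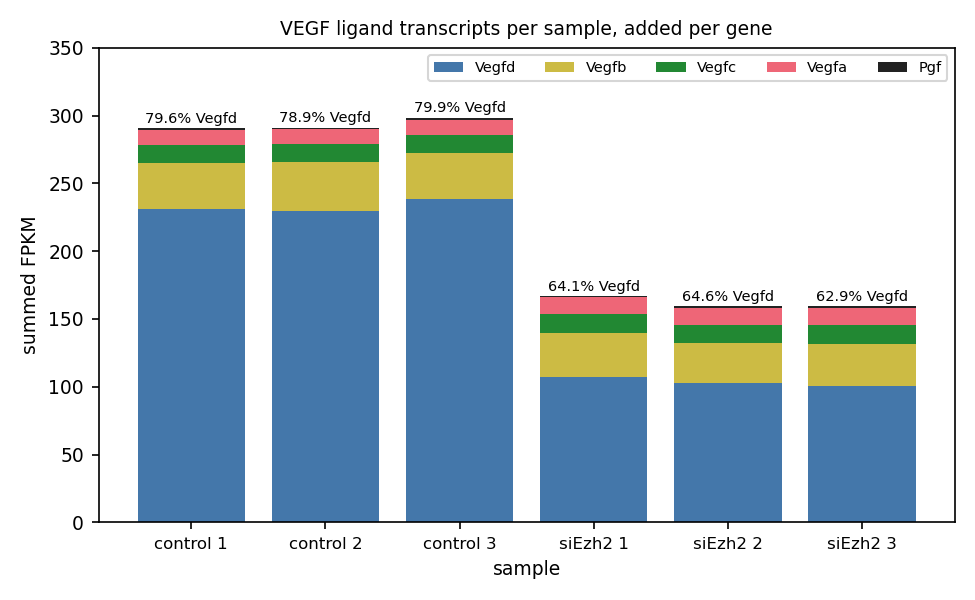
Stacked FPKM of the 5 ligand genes (vertical axis, summed FPKM from 0) in each of the 6 samples, with the percentage from Vegfd above each bar. The total is 290.5 to 298 FPKM in control and 159.5 to 167 FPKM in siEzh2 samples, and the Vegfd segment carries the drop.

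The receptors moved in opposite directions, with the more abundant Flt1 lower and the scarce Kdr higher. Flt1 encodes VEGF receptor 1, a high-affinity receptor known also as a decoy in its soluble form. It lies on chromosome 5 from 147561604 to 147726011 on the minus strand (ENSMUSG00000029648) and had 11.0, 10.2 and 10.3 FPKM in control and 8.08, 8.37 and 7.88 FPKM in siEzh2 samples. Every siEzh2 sample lay below every control. The mean fell from 10.5 ± 0.385 to 8.11 ± 0.242 FPKM (SD, n = 3 each), 1.30 times lower, with a log2 difference of -0.34 (SE 0.0411, limma adjusted p = 0.00124). The value per gene does not tell the membrane-bound from the soluble form.

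Kdr encodes VEGF receptor 2, the main signalling receptor for VEGF-A in endothelial cells. The gene (ENSMUSG00000062960, chromosome 5 from 75932827 to 75978458, minus strand) had 1.06, 1.22 and 1.06 FPKM in control and 1.49, 1.58 and 1.58 FPKM in siEzh2 samples. The groups did not overlap, although all 6 values were close to the filter limit. The mean rose 1.39 times, from 1.11 ± 0.0889 to 1.55 ± 0.0555 FPKM (SD, n = 3 each), a log2 difference of 0.27 (SE 0.0433, limma adjusted p = 0.00337), or 0.45 with 0.1 added instead of 1. The ratio of Kdr to Flt1 went from 0.106 to 0.191 in the mean. Flt1 stayed the more abundant of the pair in every sample, and the sum of both receptors went from 11.6 ± 0.339 to 9.66 ± 0.253 FPKM (SD, n = 3 each).

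The neuropilins also diverged. Nrp1 encodes neuropilin 1, the co-receptor that pairs with VEGF receptor 2 and binds Sema3a. It lies on chromosome 8 from 128358604 to 128503363 on the plus strand (ENSMUSG00000025810), and had 5.48, 5.04 and 5.59 FPKM in control and 8.39, 8.21 and 8.34 FPKM in siEzh2 samples. All siEzh2 samples lay above all controls. The mean rose 1.55 times, from 5.37 ± 0.291 to 8.31 ± 0.0918 FPKM (SD, n = 3 each), with a log2 difference of 0.55 (SE 0.0433, limma adjusted p = 0.000259). Of its exon bases 0.818% are shared with the microRNA gene Mir1903.

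Nrp2 encodes neuropilin 2, the co-receptor known for VEGF-C signalling in lymphatic endothelium. The gene (ENSMUSG00000025969, chromosome 1 from 62703285 to 62818695, plus strand) had 2.51, 2.51 and 2.60 FPKM in control and 1.71, 1.87 and 1.86 FPKM in siEzh2 samples, again without overlap. The mean fell from 2.54 ± 0.0514 to 1.81 ± 0.0881 FPKM (SD, n = 3 each), 1.40 times lower, with a log2 difference of -0.33 (SE 0.0378, limma adjusted p = 0.000978). Nrp1 was thus 2.12 times as abundant as Nrp2 in control and 4.59 times in siEzh2 samples. The 2 neuropilins together had 7.91 ± 0.325 FPKM in control and 10.1 ± 0.0648 FPKM in siEzh2 samples (SD, n = 3 each). Among the receptors and co-receptors, the order in control was Flt1, Nrp1, Nrp2, Kdr. In siEzh2 samples Nrp1 (8.21 to 8.39 FPKM) and Flt1 (7.88 to 8.37 FPKM) overlapped, so their order cannot be told apart.

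Apln encodes apelin, a peptide known to act on vascular tone and vessel growth, and its transcript had the largest fall of the 10 genes. The gene (ENSMUSG00000037010) lies on chromosome X from 48025146 to 48034853 on the minus strand. It had 8.87, 8.92 and 9.25 FPKM in control and 2.43, 2.77 and 3.17 FPKM in siEzh2 samples. The highest siEzh2 sample was below 4 FPKM and no control sample was below 8 FPKM. The mean fell from 9.01 ± 0.21 to 2.79 ± 0.374 FPKM (SD, n = 3 each), 3.23 times lower, and the log2 difference was -1.41 (SE 0.0734, limma adjusted p = 8.19e-05), rank 8 among all falls by size. These values rest on 1578 reads in control and 450 reads in siEzh2 samples. The scale understates changes of low genes, and with 0.1 added instead of 1 the log2 difference of Apln was -1.66.

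**Figure D3:**
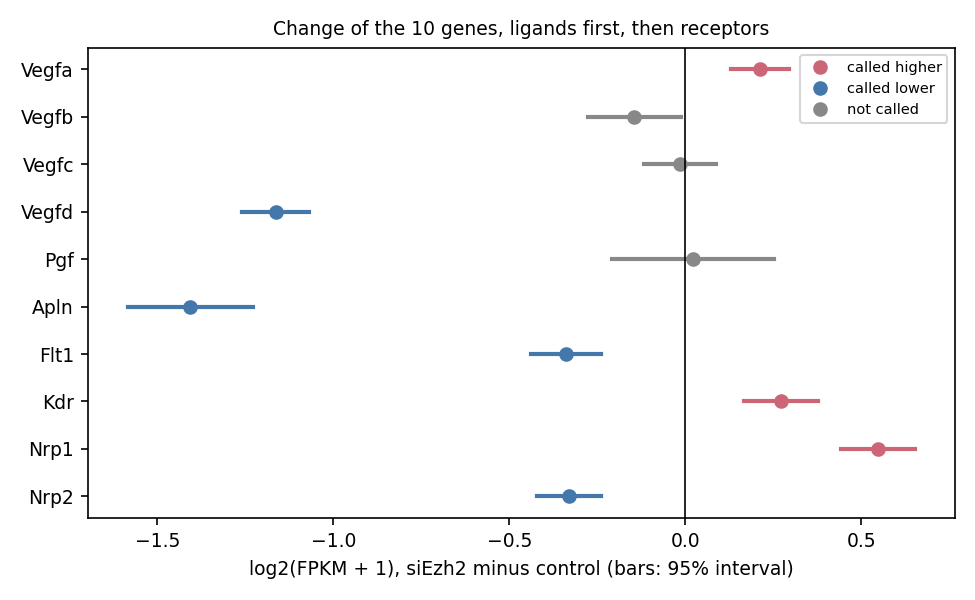
Difference of log2(FPKM + 1), siEzh2 minus control (horizontal axis), for each of the 10 genes, with points for the estimate and bars for the 95% interval. Apln (-1.41) and Vegfd (-1.16) stand apart on the left, Nrp1 (0.55) is farthest right, and the intervals of Vegfc and Pgf span 0.

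Differences between related genes were tested directly on the log2(FPKM + 1) difference of each pair within a sample. The change of Vegfd was 1.15 lower than that of Vegfc, and that of Nrp1 0.88 higher than that of Nrp2. Kdr moved 0.61 above Flt1, Vegfa 0.36 above Vegfb and Vegfa 0.19 above Pgf. In all 5 pairs the groups did not overlap, and each exact two-sided permutation p was 0.1 (0.1 after adjustment over the 5 pairs), the smallest that 20 arrangements of the samples allow. For single genes the groups did not overlap in 58.1% of all tested genes, and no such share was computed for pairs. The scale understates changes of low genes, here Kdr, Pgf and Nrp2, and so affects the size of these differences.

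The genes with patterns nearest to Vegfd and Apln were sought among the 6894 genes whose mean reached 5 FPKM. Likeness was the root mean square difference of log2(FPKM + 1), each value minus its control mean, over the 6 samples. Nearest to Vegfd were Aspn (asporin, 0.0389), Myl9 (a smooth muscle myosin light chain, 0.0616) and Dpt (dermatopontin, 0.0684). Their means were 2.34, 2.35 and 2.42 times lower in siEzh2 samples. Nearest to Apln were the sulfotransferase gene Sult1a1 (0.0516), Ehd3 (0.106) and Pawr (0.106), which were 2.90, 2.73 and 2.89 times lower. Likeness so defined rests mainly on the size of the fall, so falls of like size follow from the selection. Sult1a1 shares 4.05% of its exon bases with the antisense gene Sgf29.

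The remaining receptors for these ligands, outside the 10 genes, were scarce or did not pass the test. Flt4, the receptor of VEGF-C and VEGF-D, had 1.72, 1.57 and 1.99 FPKM in control and 1.82, 1.91 and 1.66 FPKM in siEzh2 samples. The groups overlapped (limma adjusted p = 0.814), and the 95% interval of the log2 difference ran from -0.14 to 0.18. Aplnr, the apelin receptor, was below the filter, with 4 reads in all controls together and 10 in all siEzh2 samples. It was listed at 0 in 2 control samples, and a count of 0 allows up to 3 reads per sample (counting error only). Apela, another ligand of that receptor, was not analysed here.

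Of the 7 tested receptors and partners outside the set, 3 were higher and 2 lower, with a median log2 difference of 0.04, while 24.1% of all tested genes were higher and 22.7% lower. Plxna1, a plexin that signals with neuropilins, rose by 0.46 on the log2 scale, with 10.7% of its exon bases shared with an antisense gene. Gipc1, an adaptor of neuropilin 1, rose by 0.21 and Ptprj, a phosphatase that acts on VEGF receptor 2, by 0.18. Plxna3 fell by 0.33 and Plxna2 by 0.15. Plxna2 was no longer called without control sample 1 or without control sample 2 (limma adjusted p = 0.0593 and 0.0619), among 3 of 14 alternative settings that lost the call. Ptprj, and Plau, Vash2, Col18a1, Mmp2, Svbp and Ccn1 in what follows, were picked with their values in view.

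VEGF-C and VEGF-D are made as precursors and cut by proteases, and apelin is cleaved by peptidases. In this processing list 1 of 10 tested genes was higher, 4 were lower and 5 were not called (median log2 difference -0.03). The 5 of 10 called are near the overall 46.9% (24.1% higher and 22.7% lower). Mme, the peptidase neprilysin, which is known to degrade apelin, fell from 5.06 ± 0.213 to 2.11 ± 0.0229 FPKM (SD, n = 3 each, limma adjusted p = 4.02e-05). Ccbe1, the cofactor for cleavage of VEGF-C, rose from 9.46 ± 0.224 to 13.5 ± 0.513 FPKM (SD, n = 3 each). It shares 2.95% of its exon bases with an antisense gene. The proprotein convertase Pcsk6 fell by 0.50 on the log2 scale and Plau (urokinase) by 0.23. Pcsk5, another convertase, fell from 1.14 ± 0.0368 to 0.762 ± 0.0435 FPKM (SD, n = 3 each), a log2 difference of -0.28, or -0.53 with 0.1 added instead of 1.

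A list drawn up for extracellular binding or release of VEGF also took in genes without that known role, such as Vash2 and Svbp. Of its 13 tested genes, 4 were higher and 5 lower (median log2 difference 0.09), where 24.1% and 22.7% of all tested genes were. Thbs2, an antiangiogenic thrombospondin, was 1.70 times higher. Sparc, a matrix protein that binds VEGF, was 1.32 times lower, Adamts1, a protease that can sequester VEGF, 1.26 times, and Ccn2, a matricellular protein that binds VEGF-A, 1.28 times. Ccn2 shares 23.2% of its exon bases with an antisense gene. The other higher genes were Vash2, Col18a1 and Mmp2 (log2 differences 0.66, 0.25 and 0.17), and the other lower ones Svbp and Ccn1 (-0.23 and -0.15). Without control sample 3 the lower genes numbered 3.

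Genes of oxygen sensing, through which hypoxia-inducible factors (HIFs) drive Vegfa in low oxygen, held 1 higher and 3 lower genes among 11 tested, against 24.1% and 22.7% of all tested genes (median log2 difference -0.10). Epas1, which encodes HIF-2α, had 37.6, 37.6 and 35.8 FPKM in control and 19.4, 19.9 and 22.8 FPKM in siEzh2 samples. Those groups lay far apart, and the mean was 1.79 times lower (log2 difference -0.81, limma adjusted p = 0.000268). Hif1a, which encodes HIF-1α, had means of 26.3 ± 0.667 and 26.6 ± 1.39 FPKM (SD, n = 3 each, limma adjusted p = 0.795). It shares 5.6% of its exon bases with antisense genes. Cited2, an inhibitor of HIF-dependent transcription, rose by 0.34, Hif3a fell by 0.32 and Arnt2, a partner of HIF proteins, fell by 0.18. The call of Arnt2 was lost in 7 of 13 alternative settings.

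Hypoxia response genes, chosen as textbook HIF targets, were higher in 9 and lower in 2 of 21 tested genes, with a median log2 difference of 0.10. Of all tested genes 24.1% were called higher and 22.7% lower, and the 52.4% of this list called in either direction is near the overall 46.9%. Ndrg1, Slc2a1 and Pdk1 among the higher genes passed narrowly (limma adjusted p = 0.0440, 0.0443 and 0.0493). Ldha, also higher in siEzh2 samples, narrowly missed (limma adjusted p = 0.0517). Those genes were picked with their values in view. Ero1l, an oxidase of the endoplasmic reticulum, rose 1.71 times and the glycolytic enzyme Eno1 1.26 times. Eno1 has a near-identical copy in the mouse genome that could have shared reads. Adm, which encodes the vasodilator peptide adrenomedullin, fell from 366 ± 8.25 to 224 ± 8.09 FPKM (SD, n = 3 each, log2 difference -0.71). P4ha2, a collagen prolyl hydroxylase, was 1.32 times lower. Vegfa, itself a HIF target, belongs with the 9 higher genes in direction but was not counted in the list.

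Signalling genes downstream of VEGF receptors were called higher in 6 and lower in 14 of 40 tested genes (median log2 difference -0.09). The 20 of 40 called in either direction are near the 46.9% of all tested genes, of which 24.1% were higher and 22.7% lower. Rcan2, a regulator of calcineurin, fell from 12.9 ± 0.253 to 5.99 ± 0.393 FPKM (SD, n = 3 each, log2 difference -0.99). Hspb1, a small heat shock protein that is a substrate of this pathway, was 1.30 times lower. Pxn (paxillin), a focal adhesion protein, rose by 0.29 on the log2 scale. The count of lower genes in this list was 7 without control sample 2, 8 without control sample 3 and 9 without siEzh2 sample 2.

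Among class 3 semaphorins, which bind neuropilins, 2 of 6 tested genes were higher and 2 lower (median log2 difference 0.04), counts too few to set apart from the 24.1% and 22.7% of all tested genes. Sema3a, a ligand of neuropilin 1, was 2.20 times higher, with means of 1.26 ± 0.139 and 2.78 ± 0.0706 FPKM (SD, n = 3 each). Sema3e, which signals through Plxnd1, rose 1.45 times. Sema3d and Sema3b were 1.27 and 1.51 times lower. Nrp1 and its ligand Sema3a were thus both higher, while Nrp2 was lower.

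**Figure D4:**
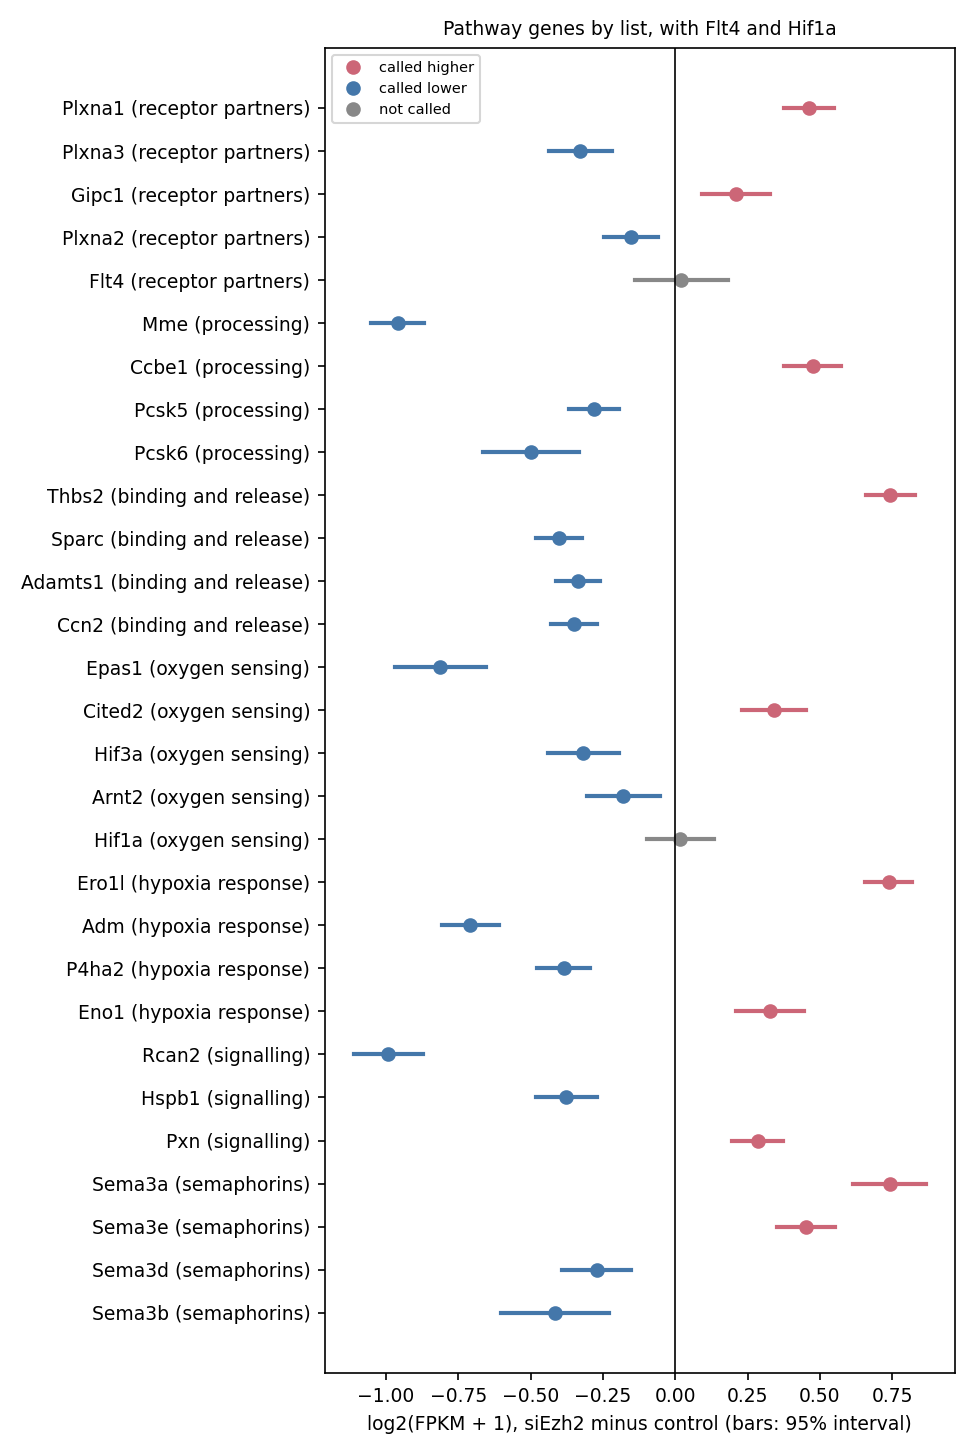
Difference of log2(FPKM + 1), siEzh2 minus control (horizontal axis), for genes named from each pathway list, with Flt4 and Hif1a added. Points are estimates and bars 95% intervals. Rcan2 (-0.99), Mme (-0.96) and Epas1 (-0.81) lie farthest left, and Thbs2, Sema3a and Ero1l (0.74 each) farthest right.

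Receptors of the family are used as endothelial markers, so markers of other cell types were read in the same samples. Of 12 endothelial markers 1 passed the filter (Emcn, lower by 0.27 on the log2 scale), and their summed level was 3.21 to 3.69 FPKM in control and 3.86 to 4.34 FPKM in siEzh2 samples. The defining marker Pecam1 had 0.105 to 0.233 FPKM in control and 0.064 to 0.0898 FPKM in siEzh2 samples, and Cdh5 had 0.139 to 0.333 FPKM over all 6 samples. Cldn5 was listed at 0 in all 3 siEzh2 samples and Robo4 in 5 of the 6 samples. Tek and Vwf, whose means were below the filter, had means of 0.332 and 0.417 in control and 0.857 and 0.932 in siEzh2 samples. Kdr was higher in the samples where the endothelial sum was higher, and Flt1 was lower there. Their part in either result was not tested.

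Markers of lymphatic endothelium summed to 15.4 to 17.1 FPKM in control and 11.7 to 14.4 FPKM in siEzh2 samples, and 1 of 3 tested was lower. That was Lyve1, found also on macrophages, which fell from 11.5 ± 0.12 to 8.05 ± 0.634 FPKM (SD, n = 3 each), while the defining factor Prox1 had 0.104 to 0.167 FPKM. The macrophage and leukocyte list, with 4 of 8 tested, 2 higher and 2 lower, summed to 17.4 to 20.8 FPKM in control and 14.3 to 15.4 FPKM in siEzh2 samples. In it the pan-leukocyte gene Ptprc was at most 0.009 FPKM. The counts of each marker list stand beside 24.1% higher and 22.7% lower over all tested genes. Smooth muscle markers were lower in 6 of 8 tested genes, and their sum of 876 to 901 FPKM in control was 609 to 649 FPKM in siEzh2 samples. Fibroblast markers, 1 higher and 3 lower of 7 tested, summed to 340 to 362 and 353 to 368 FPKM. Pericyte markers, 1 higher and 1 lower of 4 tested, summed to 167 to 169 and 170.4 to 176 FPKM. Mesothelial markers, 2 higher of 3 tested, summed to 17.7 to 18.4 and 24.9 to 27.0 FPKM. The smooth muscle, lymphatic, and macrophage and leukocyte sums were lower without overlap, like Vegfd, Flt1, Nrp2 and Apln. The mesothelial, pericyte and endothelial sums were higher without overlap, like Vegfa, Kdr and Nrp1, and the fibroblast sums overlapped. Such a sum follows its most abundant genes, mainly Acta2 in the smooth muscle list and Lyve1 in the lymphatic one. The higher endothelial sum went with Tek and Vwf, while Emcn and Pecam1 were lower. A sum is therefore no measure of the number of cells of a type. The part of other cell types in those results was not tested.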

How the data were processed

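Gene tables of 6 samples were used, 1 per sample, each with FPKM values deposited by the authors and named so per the file headers. The libraries were stranded (TruSeq Stranded mRNA, per the labels' protocols). The submitters' processing notes list HTSeq, Cufflinks, HISAT2, Trimmomatic and the build mm10. Their versions, their order and the use of strand in counting were not found in the sources used, which leaves genes that overlap an antisense gene uncertain.

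The 10 genes and all gene lists were chosen with earlier results of these data known. The planned test named an option for counts and one for FPKM, and the second applied. The 11869 genes with a group mean of 1 FPKM or more entered limma 3.58.1 (R 4.3.3) on log2(FPKM + 1), trend and robust off, without covariates. Benjamini-Hochberg adjustment ran over all tested genes, and genes with an adjusted p under 0.05 count as called. SD and ratios are of FPKM. Sums, shares and pairs were compared by exact two-sided permutation. The script was tested on simulated data. Named were Ezh2, the 10 genes, Flt4, Aplnr, Apela, Hif1a, Epas1, the 4 genes with the smallest p per pathway list (1 signalling gene is not reported here), and the 3 nearest genes to any of the 10 genes called with a log2 difference of at least 1 in size. Markers and genes said to be picked with their values in view lie outside this rule.

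FPKM times exon length (GENCODE M21) moved in steps of 1 read, and 98.4% to 98.5% of values under 1000 reads came out whole within 0.02. The limit that a count of 0 allows, 3 reads, equals 0.16 to 0.187 CPM. Alternatives were a pseudocount of 0.1, no filter, a filter at 5 FPKM, quantile normalization, median-centring, trend and robust on, the replicate number as a block, limma-voom on recovered reads, and leaving out each sample in turn. Other steps used Python 3.11.15, scipy 1.17.1, numpy 2.4.6, pandas 2.3.3 and matplotlib 3.10.9.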

Additional observations from a re-analysis of the deposited data

How the results depend on the processing

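The calls of Vegfa, Vegfd, Flt1, Nrp1 and Apln held in all 14 alternatives, and those of Kdr and Nrp2 in the 13 that tested them, since both lie below a filter at 5 FPKM. No result reversed. Vegfb became called at a filter of 5 FPKM (limma adjusted p = 0.0411), with trend and robust on (0.0382), by limma-voom on recovered reads (0.0193) and without siEzh2 sample 1 (0.0434). The log2 difference of Apln ran from -1.69 to -1.34 and that of Vegfd from -1.19 to -1.14. The number of genes called among all tested was 5561, 6229 by limma-voom and 4949 with the replicate block. At a filter of 5 FPKM the lower genes numbered 1 among receptors and partners, 2 in the processing list and 0 among semaphorins (2, 4 and 2 in the main test), and the higher semaphorins numbered 1, because fewer genes were tested. Limma-voom called 2 higher genes in the processing list. With the replicate block 1 receptor or partner was lower, since Plxna2 lost its call (limma adjusted p = 0.0504), and 9 signalling genes were. When each sample was left out in turn, lower genes numbered 1 to 2 among receptors and partners, 3 to 5 in the binding and release list (3 without control sample 3) and 7 to 12 in the signalling list. The cause of the other changes was not tested. Whether replicate numbers pair the samples could not be told. The correlation of deviations between same-numbered samples was only 0.0243, 0.0695 and 0.0405 across genes, but each sample correlated best with its own number. The replicate block changed no call among the 10 genes. Depth was low for Pgf (201 to 211 reads per group) and Aplnr (4 and 10 reads).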
